A study of Mus musculus with 18 samples.

Results

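The genes described here encode the protein parts of the spliceosome, the machine that removes introns from pre-mRNA, together with the SR proteins that guide it. The set was chosen with earlier results of these data known. Its members are all genes of the count table whose symbol begins with Snrp, or with Srsf, Sf3a, Sf3b or Prpf followed by a digit. The pattern matched 49 entries, and 3 with the pseudogene suffix -ps were left out. This gave 46 of 55291 genes.

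The genes were followed in mouse oocytes of 4 groups with 3 libraries each, 12 of the series' 18 samples. Control oocytes came from females with Vps34 floxed/floxed alleles and no Cre. Conditional knockout (cKO) oocytes came from females that were Vps34 floxed/floxed and Zp3-Cre positive. VPS34 is the class III phosphatidylinositol 3-kinase that makes the lipid PI3P in autophagy and endosome traffic, and Pik3c3 is its gene symbol. The floxed alleles are thus shared by all 4 groups. Zp3-Cre is active in growing oocytes, so cKO oocytes had VPS34 in their earliest stages. All females were 5 weeks old. Oocytes that had finished growth but not resumed meiosis, at the germinal vesicle stage (GV), were taken 46 h after PMSG. Mature oocytes at metaphase II (MII) were taken 14 h after hCG. Each library pooled 5 oocytes, and the labels do not tie libraries to separate animals, so p-values measure the spread between these pools, which may be narrower than that between animals.

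In each splicing cycle the U1 and U2 small nuclear ribonucleoproteins (snRNPs) mark the ends of an intron, the U4/U6.U5 tri-snRNP joins, and the Prp19 complex helps to turn the assembly into its active form. Most snRNPs carry the same ring of Sm proteins around their small RNA. SR proteins bind exons and help to select splice sites. A fully grown oocyte has all but ceased transcription, and its mRNAs are stored, translated or removed during maturation with little new synthesis.

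The libraries held 2609783 to 4696626 counts in genes. The share of ERCC spike-ins, synthetic RNAs added in fixed amount, was 7.09% to 18.7% at GV and 29.3% to 39.9% at MII. Values therefore depend on the scale. TMM scaling sets each gene against the bulk of the library's other genes, and ERCC scaling sets it against the added RNA. With ERCC scaling the median of all 11607 genes tested moved from 0.01 to -1.72 (log2, MII over GV) in control and from -0.04 to -2.37 in cKO. The library cKO GV 1 stood apart, with 13.1 gene counts per ERCC count against 4.35 to 8.69 in the other GV libraries, and without it the ERCC median in cKO was -2.01. "Rose" and "fell" below refer to TMM scaling unless ERCC is named. Levels are CPM, each gene's count scaled by its library's TMM-adjusted gene total. All 11 oocyte markers had counts, with sums of 13590 to 43050 CPM. The 15 cumulus and granulosa markers summed to 67.1 to 104.3 CPM at GV, 202 to 286.6 in control MII and 118.5, 185.7 and 552.5 in cKO MII, where library 1 was highest. Ptx3 and Tnfaip6 were at 0 in every GV library and Amh in every MII library. The 10 blood and immune markers, 8 of which had counts, summed to 47.4 to 81.8 CPM at GV and 5.22 to 12.04 at MII, with C1qb at means of 62.8 in control GV and 5.87 in control MII and with Hbb-bs and Hbb-bt at 0 throughout. The part of these markers in the changes from GV to MII was not tested. Pik3c3 was at 25.1 to 33.0 CPM in control GV, 1.54 to 2.39 in cKO GV, 12.3 to 21.8 in control MII and 2.47 to 5.41 in cKO MII.

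From GV to MII in control oocytes, 15 of the 43 spliceosome and SR genes tested rose and 11 fell (edgeR quasi-likelihood test, Benjamini-Hochberg adjusted p under 0.05), and with ERCC scaling 0 rose and 29 fell. Over all genes tested, 63.9% were called, 30.1% higher and 33.8% lower (ERCC scaling 0.56% higher and 70.1% lower), so the share among the spliceosome genes, 26 of 43, was near the background. The falls reached 42.1-fold, for the Sm ring gene Snrpd2, and the rises 3.56-fold, for the SR protein gene Srsf5. All such changes are in counts from libraries primed on poly(A) tails, and the part of tail length in them was not tested. Rises and falls were mixed within most complexes. The Sm ring had 3 higher and 2 lower of 8, the U1 set 2 and 2 of 4, the U2 set 2 and 3 of 11 and the tri-snRNP set 3 and 3 of 8, with none called higher in any of them under ERCC scaling. The SR proteins had 5 higher and 1 lower of 9, and under ERCC scaling 0 higher and 3 lower. The median change of the 43 genes was 0.11 (all genes 0.01), and -1.62 (all genes -1.72) with ERCC scaling.

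In cKO oocytes 16 of the same 43 genes rose and 11 fell, against a background of 63.5% called, 29.5% higher and 34% lower, and with ERCC scaling 0 rose and 40 fell (all genes 0.801% and 88%), or 35 without library cKO GV 1. Both genotypes called 25 genes in the same direction, 14 higher and 11 lower, and 0 in opposite directions. Over all 11607 genes tested, 6366 were called in the same direction in both, 2870 higher and 3496 lower, and 2 in opposite directions. Srsf11 was called in control alone, and Snrpe and the pseudogene Snrpert in cKO alone. Across the 43 genes the changes in control and cKO, which share no libraries, had a Pearson r of 0.960 and a Spearman rho of 0.954. Across all 11607 genes tested these were 0.924 and 0.929. Genes are not independent replicates, and these values are a description.

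**Figure D1:**
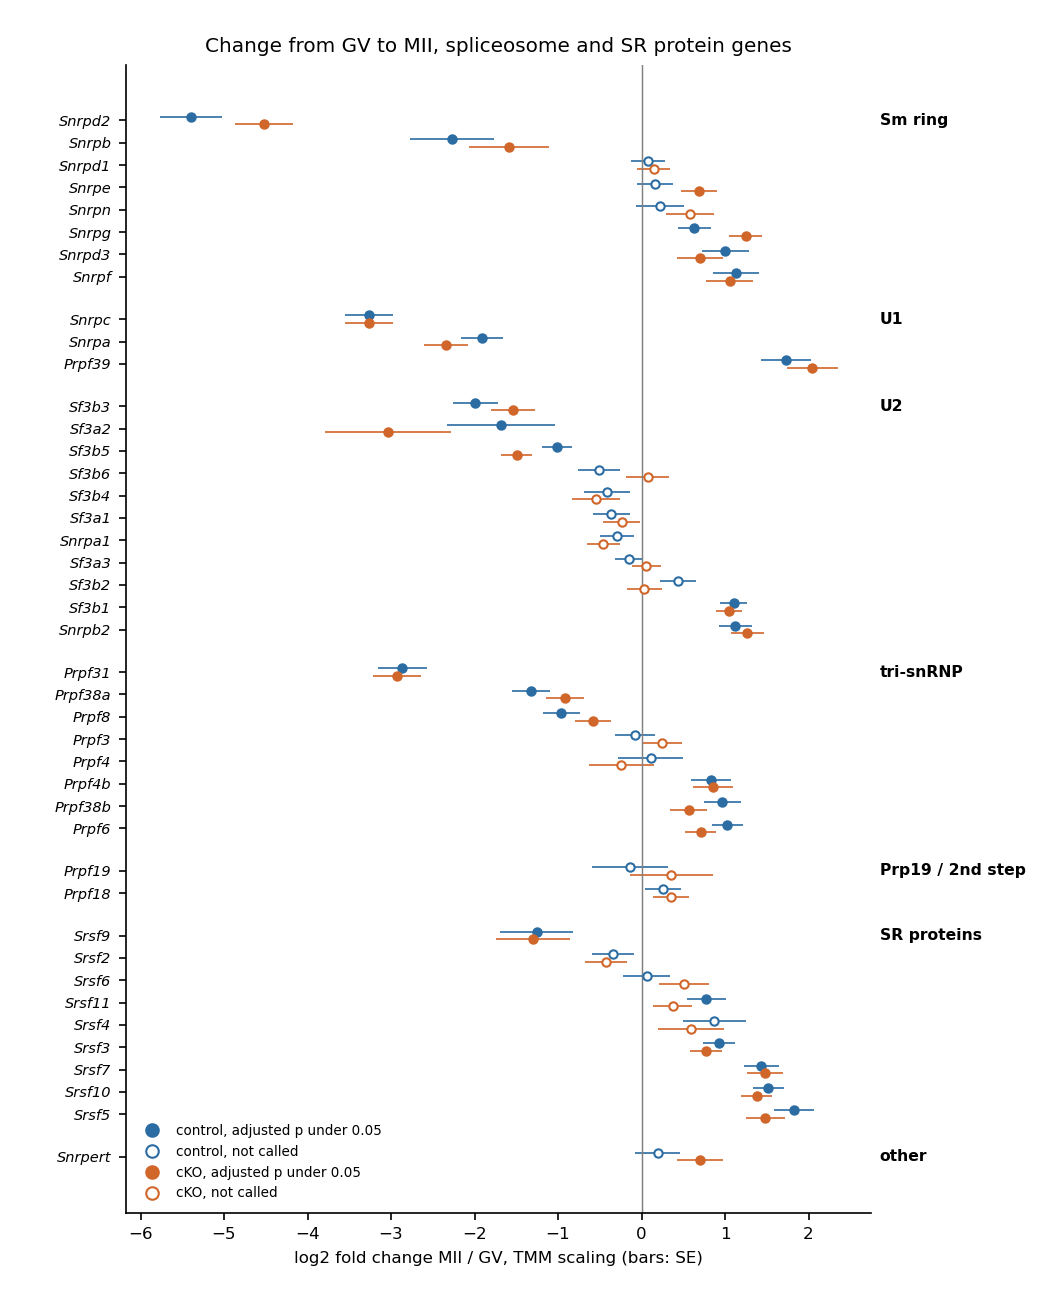
Change from GV to MII of 42 of the 43 genes tested, by role, as log2 fold change with TMM scaling (x axis; bars are standard errors) in control (blue) and cKO (orange), with filled points at an adjusted p under 0.05. Filled points lie on both sides of 0 in the Sm, U1, U2, tri-snRNP and SR sets, from -5.40 (Snrpd2, control) to 2.04 (Prpf39, cKO), and with ERCC scaling none was called higher.

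The 3′ ends of the mRNAs are shown first for genes with a match to the cytoplasmic polyadenylation element, a motif bound by CPEB that is known for its part in the translation of stored oocyte mRNAs. The motif was searched as TTTTAT or TTTTAAT in the last 100 bases of 1 transcript per gene, on the transcript's own strand, and is in capitals. Of the genes that rose in control, 4 of 15 held it (26.7%), and Sf3b1, Prpf6 and Snrpd3 are shown. Of the genes that fell, 1 of 11 held it (9.09%), Prpf8. In Prpf6 and Prpf8 the motif lies downstream of the polyadenylation signal (AATAAA or ATTAAA). It ends 6 and 8 bases from the transcript end, against 15 and 14 for the signal. In Sf3b1 and Snrpd3 it lies upstream, at 65 and 28 against 16 and 16. Coordinates are on mm10 (GRCm38), sequences are from GENCODE M21 transcripts, and each stretch is 3′ UTR.
Sf3b1 (chr1:54985222-54985251, minus strand): ttatattgtatTTTTAATatttgttgtatg
Prpf6 (chr2:181655631-181655660, plus strand): cttttactcattaaaggtTTTTATagagtt
Snrpd3 (chr10:75537336-75537365, plus strand): ctgtttggtttaTTTTATtgtattaataaa
Prpf8 (chr11:75509418-75509447, plus strand): aacaaaatgtaataaaTTTTATaaatagtg

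Among all genes tested with a known 3′ end, 30.6% of those that rose in control, 9.52% of those that fell and 20.1% of all 10065 held the motif. Among the 42 spliceosome genes with such an end it was 9 (21.4%), the other 4 being Sf3a1, Sf3a3, Snrpa1 and Srsf4, which were not called. The shares of the spliceosome genes thus lay near those of all genes with the same call. For the genes with the 2 largest falls that held a polyadenylation signal (AATAAA or ATTAAA in the last 40 bases, transcript strand), the ends show that signal in capitals and no TTTTAT or TTTTAAT. In these data 77.1% of all genes tested with a known 3′ end, 12 of the 15 spliceosome genes that rose and 8 of the 11 that fell held the signal. No copy of either motif overlapped the other in any of the spliceosome genes.
Snrpc (chr17:27851929-27851958, plus strand): gtgaaatgtgaaAATAAAgtcatcagctct
Prpf31 (chr7:3642449-3642478, plus strand): ccccaaaaccaaAATAAAgccaaaacaaca

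A match to either motif is a description of the sequence, and no binding or tail length was measured. Snrpd2, with the largest fall, held neither motif in these windows.

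The Sm ring is built from Snrpb (or its neuronal relative Snrpn), Snrpd1, Snrpd2, Snrpd3, Snrpe, Snrpf and Snrpg. In GV oocytes Snrpd2 was at 129.7, 135 and 94.9 CPM in control and 148, 135 and 95.1 in cKO. In MII oocytes it was at 1.58, 3.68 and 3.12 CPM in control and 9.66, 2.78 and 4.27 in cKO. Every MII library was thus far below every GV library. In control the log2 change was -5.40 (SE 0.37, adjusted p 9.5e-10 by edgeR's quasi-likelihood test) and with ERCC scaling -7.05. In cKO it was -4.52 (SE 0.35), a 23.0-fold fall, and -5.16 without cKO MII library 1. That library was also the one with the highest sum of cumulus and granulosa markers, and their part in this value was not tested. Snrpd2 shares 6.26% of its 50-base stretches with other genes, chiefly the processed pseudogene Gm10120.

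Snrpb, which encodes the SmB protein of the ring, was at 17.6, 27.6 and 18.1 CPM in control GV and 20.3, 23.2 and 22.7 in cKO GV. At MII it was at 2.85, 7.67 and 2.55 CPM in control and 15.8, 3.40 and 3.11 in cKO, so that cKO MII library 1 lay close to the GV range. The log2 change was -2.27 (SE 0.50) in control and -1.59 (SE 0.48) in cKO. Without cKO MII library 1 the cKO change was -2.74, and without control MII library 2 the control change was -2.94. Snrpd2 and Snrpb were the ring genes that fell with TMM scaling. With ERCC scaling 6 of the 8 ring genes were called lower in control and 8 of 8 in cKO, against 70.1% and 88% of all genes tested.

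The other ring genes did not fall with TMM scaling. Snrpd1, whose protein forms a pair with that of Snrpd2 in the ring, was at 291.7, 309 and 284 CPM in control GV and 342, 311 and 280.4 in control MII. Its log2 change was 0.08 (SE 0.20, adjusted p 0.747) with TMM and -1.66 with ERCC scaling. Snrpg was at 127.5, 173 and 145 CPM in control GV and 223, 239 and 230.0 in control MII, which do not overlap. It rose by 0.63 (SE 0.20) in control, or 0.53 (adjusted p 0.0525) without control GV library 1, and by 1.25 (SE 0.20) in cKO, with -1.11 and -1.16 under ERCC scaling. Snrpd3 rose by 1.01 (SE 0.28) and Snrpf by 1.13 (SE 0.28) in control, with -0.84 and -0.65 under ERCC scaling. In cKO Snrpd3 changed by 0.70, a call lost without any 1 of cKO GV libraries 2 and 3 or cKO MII library 3 (0.47 to 0.65). Snrpe was called in cKO alone, at 0.69 (SE 0.22), a call lost without cKO GV library 3 or cKO MII library 3, and its control value was 0.16 (SE 0.22). Reads of Snrpf are uncertain, since 85.4% of its exon length overlaps genes on the opposite strand and the strand setting of the counting is not known. Other genes also share 21.3% of the 50-base stretches of Snrpf and 11.6% of those of Snrpg. Snrpn, at 0.22 (SE 0.29) in control, shares 27.3% of its exon length with the overlapping genes Snurf and Gm38393.

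**Figure D2:**
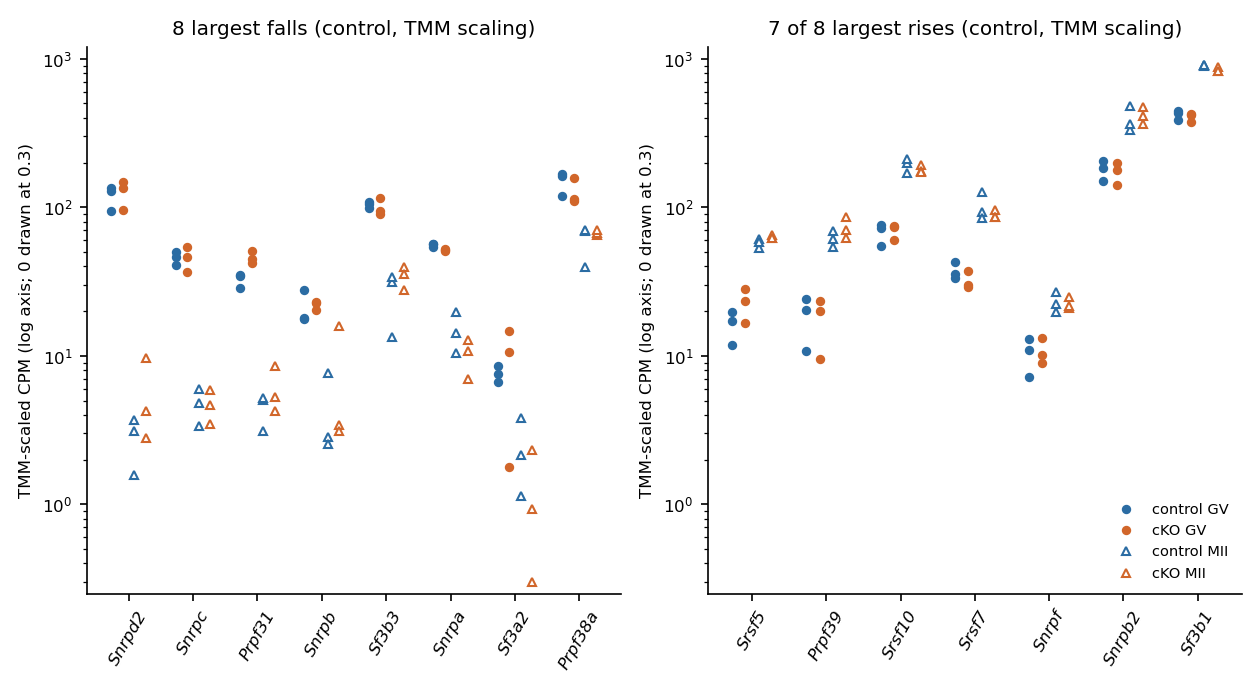
TMM-scaled CPM (log y axis) in each of the 12 libraries for the 8 genes with the largest falls (left) and 7 of the 8 with the largest rises (right) in control, with circles for GV and triangles for MII. GV and MII points of 1 genotype do not overlap except for Sf3a2 in cKO, and with ERCC scaling the genes on the right were below 0 apart from Srsf5 (0.14) and Prpf39 (0.00) in control.

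In the U1 set the core protein genes Snrpc and Snrpa fell and Prpf39 rose with TMM scaling, and with ERCC scaling none was called higher. Snrpc encodes U1-C, which steadies the pairing of U1 with the start of the intron. It was at 50.2, 40.8 and 46.3 CPM in control GV and 6.02, 3.38 and 4.82 in control MII. In cKO the values were 36.6, 46.3 and 54.0 CPM at GV and 4.64, 5.87 and 3.50 at MII. The falls were of the same size, -3.26 (SE 0.28) in control, or 9.60-fold, and -3.26 (SE 0.29) in cKO. Snrpa encodes U1-A, which binds a stem-loop of U1 RNA. It was at 53.8 to 56.9 CPM in control GV against 10.5 to 19.6 in control MII, a change of -1.91 (SE 0.25), and changed by -2.34 (SE 0.26) in cKO. For Snrpa 11.2% of 50-base stretches are found in other genes, and 11.0% of exon length overlaps BC024978 on the other strand.

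Prpf39 encodes a factor that works with U1 at the start of the intron. It was at 20.4, 10.7 and 24.1 CPM in control GV and 54.1, 61.1 and 68.9 in control MII. It rose by 1.73 (SE 0.30) in control and 2.04 (SE 0.31) in cKO, and with ERCC scaling the values were 0.00 and -0.15. On that scale Prpf39 in control lay above the median of all genes, which was -1.72. Prpf40b had too few counts to be tested, with totals of 20 and 11 over the 3 libraries of control GV and control MII.

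Within the U2 set, subunits of SF3b were called in both directions with TMM scaling and in the lower direction alone with ERCC scaling. SF3b holds the branch site of the intron, and its scaffold gene Sf3b1 was at 445, 386 and 430.5 CPM in control GV and 897, 903 and 910.0 in control MII, higher in all 3. Sf3b1 rose by 1.10 (SE 0.16) in control and 1.05 (SE 0.16) in cKO, and with ERCC scaling changed by -0.62 and -1.26. Sf3b3, which encodes another large subunit of SF3b, was at 98.3, 108 and 105 CPM in control GV and 13.3, 31.3 and 33.7 in control MII, lower in all 3. It fell by 1.99 on the log2 scale (SE 0.27) in control and by 1.54 (SE 0.26) in cKO. Sf3b5, a small SF3b subunit, was at 141 to 186 CPM in control GV and 75.2 to 85.1 in control MII, a change of -1.01 (SE 0.18), and -1.50 (SE 0.19) in cKO. Sf3b2, Sf3b4 and Sf3b6 were not called in either genotype, at 0.44, -0.41 and -0.51 in control. For Sf3b4 43.6% of its 50-base stretches are shared with the pseudogene Gm7935.

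Snrpb2 encodes U2-B″ and Snrpa1 encodes U2-A′, which bind U2 RNA as a pair. Snrpb2 was at 151, 184 and 205 CPM in control GV and 481, 333 and 363 in control MII. It rose by 1.13 (SE 0.20) in control and 1.27 (SE 0.20) in cKO, with -0.68 and -1.15 under ERCC scaling. Snrpa1 was at -0.29 (SE 0.20) in control and -0.46 (SE 0.20) in cKO and was not called. Among the 3 SF3a genes, whose proteins join SF3b to U2, Sf3a1 (-0.36) and Sf3a3 (-0.15) were not called in control. Sf3a2 was at 7.54, 8.58 and 6.65 CPM in control GV and 3.80, 2.15 and 1.13 in control MII, and changed by -1.68 (SE 0.65, adjusted p 0.0308). That call was lost without any 1 of control GV libraries 1 and 2 or control MII libraries 2 and 3, with values of -1.69 to -1.34. In cKO Sf3a2 changed by -3.04 (SE 0.75), or -4.05 without cKO MII library 1, while its cKO GV values of 14.8, 10.7 and 1.79 CPM overlapped its MII values of 2.32, 0.93 and 0. The opposite-strand gene Plekhj1 covers 16.1% of Sf3a2's exon length.

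In the tri-snRNP set Prpf31 had the largest fall. It was at 34.2, 35.1 and 28.5 CPM in control GV and 50.5, 44.7 and 42.4 in cKO GV. At MII it was at 5.07, 5.22 and 3.12 CPM in control and 8.50, 5.25 and 4.27 in cKO. The change was -2.86 (SE 0.30), or 7.27-fold, in control and -2.93 (SE 0.29) in cKO, and no GV library overlapped an MII library. Exons of Gm15927 on the opposite strand cover 18.1% of Prpf31.

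Prpf38a, which is needed to activate the assembled spliceosome, was at 163, 119 and 168 CPM in control GV and 39.9, 68.7 and 70.6 in control MII. It fell by 1.33 on the log2 scale (SE 0.23) in control and by 0.92 (SE 0.23) in cKO. Its relative Prpf38b went the other way with TMM scaling, at 51.5 to 64.7 CPM in control GV and 109.6 to 125.6 in control MII, a rise of 0.97 (SE 0.22) that was -0.72 with ERCC scaling. In cKO Prpf38b changed by 0.56, a call lost without any 1 of cKO GV libraries 2 and 3 or cKO MII library 2 (0.38 to 0.47). Prpf8 encodes the U5 protein at the heart of the active site. It was at 106 to 142.5 CPM in control GV and 60.8 to 69.5 in control MII, a change of -0.96 (SE 0.22). In cKO the value of Prpf8 was -0.58, with overlapping groups, and the call was lost without any 1 of cKO GV libraries 1 and 2 or cKO MII libraries 1 and 2 (-0.59 to -0.41). Prpf6, the bridge between U5 and U4/U6, rose by 1.03 (SE 0.19) and 0.71 in control and cKO, and Prpf4b, a kinase of the tri-snRNP, by 0.84 and 0.86. With ERCC scaling Prpf6 was at -0.71 and -1.72 and Prpf4b at -0.94 and -1.55. Prpf3 (-0.08) and Prpf4 (0.11), which encode partners in the U4/U6 snRNP, were not called in control. Neither was Prpf19 (-0.13, SE 0.46), the ubiquitin ligase of the Prp19 complex, nor Prpf18 (0.26, SE 0.22), a factor of the second step of splicing.

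Among the SR proteins the called genes rose with the exception of Srsf9, and with ERCC scaling all but Srsf5 in control had values below 0. Srsf5 was at 19.8, 11.8 and 17.2 CPM in control GV and 53.5, 61.4 and 58.7 in control MII. In cKO it was at 28.0, 16.7 and 23.3 CPM at GV and 62.2, 65.2 and 62.2 at MII. Every MII library was above every GV library, and the rise was 1.83 (SE 0.24) in control and 1.48 (SE 0.23) in cKO, against 0.14 and -0.90 with ERCC scaling. Srsf10, whose protein is known as a regulator that acts when dephosphorylated, rose by 1.52 (SE 0.19) in control and 1.38 (SE 0.19) in cKO. Srsf7, which encodes a protein that shuttles between nucleus and cytoplasm, rose by 1.43 (SE 0.21) and 1.48 (SE 0.21). Srsf3, another shuttling SR protein, rose by 0.93 (SE 0.19) and 0.77 (SE 0.20). With ERCC scaling Srsf10 was at -0.20 and -0.96, Srsf7 at -0.36 and -0.81 and Srsf3 at -0.83 and -1.54. Srsf5, Srsf10 and Srsf3 share 10.1%, 10.3% and 10.0% of their 50-base stretches with other genes, and Srsf7 0.556%, so counts of the first 3 are uncertain in part. Srsf11 was called in control at 0.78 (SE 0.24), or 0.58 (adjusted p 0.0611) without control GV library 3, and stood at 0.37 (SE 0.24) in cKO.

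Srsf9 was at 8.48, 15.8 and 9.97 CPM in control GV and 2.22, 3.99 and 7.94 in control MII, lower with no overlap. The change was -1.26 (SE 0.44) in control and -1.30 (SE 0.45) in cKO. The control call was lost without control GV library 2 or control MII library 1 or 2 (-1.14 to -0.92), and the value was -1.86 without control MII library 3. The cKO call was lost without cKO GV library 1 or 2 or cKO MII library 3 (-1.14 to -1.11). Srsf2 (-0.34), Srsf4 (0.87, adjusted p 0.0527) and Srsf6 (0.06) were not called in control. Srsf1 and Srsf12 had too few counts for a test. The 12 libraries gave Srsf1 totals of 12, 4, 6 and 3 counts over control GV, cKO GV, control MII and cKO MII, and Srsf12 totals of 1, 1, 3 and 1. Counts of Srsf4 and Srsf2 are uncertain, since 43.0% and 25.3% of their exon length overlap genes on the other strand.

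Snrpert, a processed pseudogene of Snrpe, shares 55.7% of its 50-base stretches with Snrpe and other copies, so its counts are uncertain in part. It was not called in control (0.19) and stood at 0.70 in cKO, a call lost without any 1 of cKO GV libraries 2 and 3 or cKO MII libraries 2 and 3 (0.45 to 0.71).

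**Figure D3:**
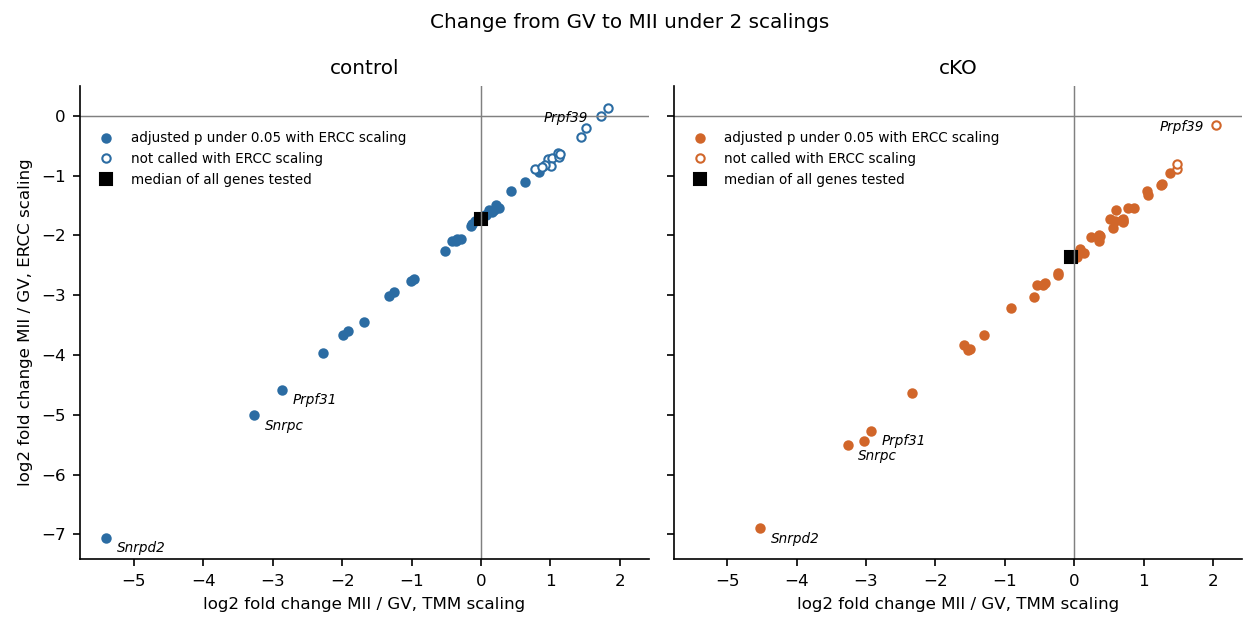
Log2 change from GV to MII of 42 of the 43 genes with TMM scaling (x axis) and with ERCC scaling (y axis) in control (left) and cKO (right). Points and the median of all genes (black square, at -1.72 in control and -2.37 in cKO) lie lower with ERCC scaling, and open points, at the upper right, were not called with it.

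Of the 15 genes that rose in control with TMM scaling, 13 had negative values with ERCC scaling and 2 of them were called lower. All 11 genes that fell with TMM scaling were called lower with ERCC scaling, from -7.05 to -2.72. Of the 17 that were not called in control, 16 were called lower with ERCC scaling. In cKO the 16 genes that rose all had negative ERCC values, and 13 of them were called lower. Over all genes tested, 70.1% were called lower with ERCC scaling in control and 88% in cKO, with medians of -1.72 and -2.37. The counts above thus carry the shift between scales, which genes at large shared.

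Levels per kilobase of exon allow a rough comparison between genes, since the length is that of all annotated exons merged. This length can far exceed that of the 1 transcript used for the 3′ ends. It was 6521 against 758 bases for Snrpc, but 3841 against 3841 for Sf3b5. Ranks between genes thus depend on the annotation. In control GV oocytes Snrpe (160.1 ± 31.7 TMM-scaled CPM per kb, SD, n = 3) and Snrpd1 (143.7 ± 6.40) were highest, and their ranges of 124.3 to 184.6 and 138.2 to 150.7 overlapped. Snrpg (94.7 ± 14.7), Sf3a3 (64.2 ± 8.47) and Snrpb2 (62.9 ± 9.48) followed among the protein-coding members. Snrpd2 was next at 45.8 ± 8.34 and ranked 7 of 46, while in control MII it ranked 38 at 1.07 ± 0.415. Its ring partners Snrpe, Snrpd1 and Snrpg ranked 1, 2 and 3 in control MII, at 179, 152 and 147 per kb. Snrpc went from rank 31 to 42 and Prpf31 from 33 to 41. Srsf5 went from rank 36 to 19. The lowest were Srsf1 at 0.185 ± 0.0881 and Srsf12 at 0.0284 ± 0.0492 in control GV.

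Base composition and the length of the 3′ UTR, which the choice of genes did not use, had different medians in the genes that rose and those that fell with TMM scaling, and with ERCC scaling no gene was called higher. The coding sequences of the 15 that rose in control had a median GC content of 47.8%, and those of the 11 that fell 57.4%. Median 3′ UTR length was 1536 bases for the genes that rose and 300.0 for those that fell. The contrast was also present over all genes tested, at 48.4% against 54.5% GC and 1352 against 557 bases. Across the 42 genes with a known 3′ end the change in control had a Pearson r of -0.494 with coding GC content (Spearman rho -0.571), and across all 10065 genes -0.345 (-0.380). For 3′ UTR GC content r was -0.551, and -0.382 over all genes. In cKO the r with coding GC content was -0.599, and -0.411 over all genes. These values describe genes that share the same libraries, and the part of base composition in the counts was not tested. Prpf39, at 38.3% GC, and Sf3a2, at 62.6%, mark the ends among the called genes. Srsf2 had the highest coding GC content of all, 68.2%, and was not called. Prpf31, which fell, had a 3′ UTR of 1564 bases, and Prpf6, which rose with TMM scaling, one of 86 bases.

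**Figure D4:**
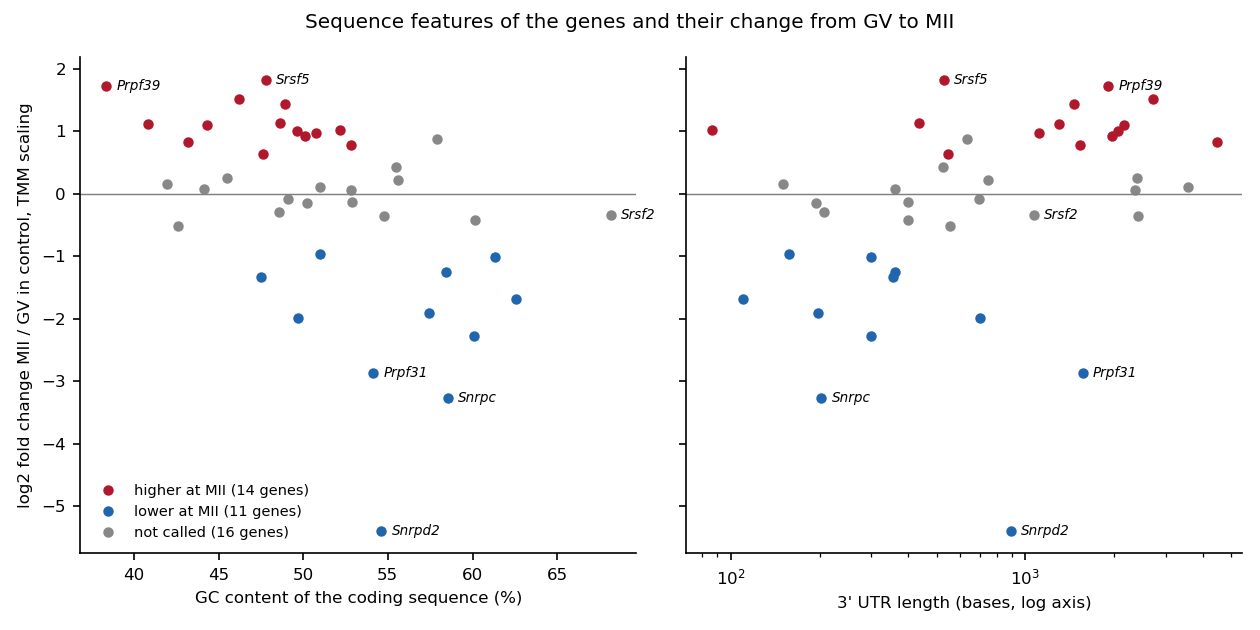
Log2 change from GV to MII in control with TMM scaling (y axis) against the GC content of the coding sequence (left, percent) and the length of the 3′ UTR (right, bases, log axis) for 41 genes, in red for higher, blue for lower and grey for not called. Median GC was 47.8% for the 15 genes that rose, 14 of them drawn, and 57.4% for the 11 blue points, and with ERCC scaling no red point was called higher.

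The comparison of cKO with control asked whether loss of VPS34 changed these mRNAs at either stage. In GV oocytes 0 of 43 spliceosome and SR genes were called, against 0.0825% of all genes tested (9 of 10911), by edgeR and also by DESeq2 (all genes 0.119%). At an unadjusted p under 0.05 there were 3, 1 higher and 2 lower, against 2.2% of all genes. The differences ran from -0.67 to 0.49 with a median of 0.03 (all genes 0.01). In 41 of the 43 the size was under 0.5 on the log2 scale (95.3%), and over all genes this share was 91.5%. The 3 and 3 libraries did not overlap for 5 of 43, 1 higher and 4 lower, against 7.1% of all genes (3.5% and 3.6%). With ERCC scaling the median was 0.48 (all genes 0.46), and 0 were called (all genes 0.101%). This median rested largely on library cKO GV 1, and without it was 0.12 (all genes 0.13). Without control GV library 1 it was 0.24, and without control GV library 3 it was 0.76.

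Srsf6, an SR protein gene, had the smallest p at GV. It was at 22.0, 24.4 and 20.2 CPM in control and 12.3, 17.4 and 11.9 in cKO, which do not overlap. The difference was -0.67 (SE 0.25, unadjusted p 0.0197, adjusted p 0.999993 by edgeR), and -0.24 with ERCC scaling. Prpf31 was higher by 0.49 (SE 0.20, unadjusted p 0.0292), and Sf3b6, an SF3b subunit that touches the branch site, was at -0.48 (SE 0.20, unadjusted p 0.0358). None of these passed the correction, and the lowest adjusted p of any of the 43 over the 12 planned fits was 0.401, for Prpf31. For Snrpd2 the difference at GV was 0.07 (SE 0.22), for Snrpc 0.00 (SE 0.21), for Sf3b1 -0.05 (SE 0.17) and for Snrpd1 0.04 (SE 0.20).

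In MII oocytes 0 of 42 genes were called, against 0% of the 9677 genes tested by edgeR and 0.0413% (4 genes) by DESeq2. At an unadjusted p under 0.05 there were 0, against 9.01% of all genes. Differences ran from -0.52 to 0.97 with a median of 0.08 (all genes 0.02), and 39 of 42 were under 0.5 in size (92.9%, all genes 79.8%). The libraries did not overlap for 5 of 42, 3 higher and 2 lower, against 15.8% of all genes (7.19% and 8.58%). With ERCC scaling the median was -0.11 (all genes -0.15), and 0 were called (all genes 0%). It turned above 0 without cKO MII library 3 (0.063) or control MII library 3 (0.011). The smallest p belonged to Sf3a3 (0.33, SE 0.16, unadjusted p 0.0592), Snrpe (0.34, SE 0.16, unadjusted p 0.0601) and Sf3b5 (-0.33, SE 0.17, unadjusted p 0.0734). The largest differences were those of Snrpd2 (0.97, SE 0.57) and Snrpb (0.77, SE 0.70), both low at MII and both highest in cKO MII library 1. The lowest adjusted p over the 12 planned fits was 0.294, for Sf3a3.

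**Figure D5:**
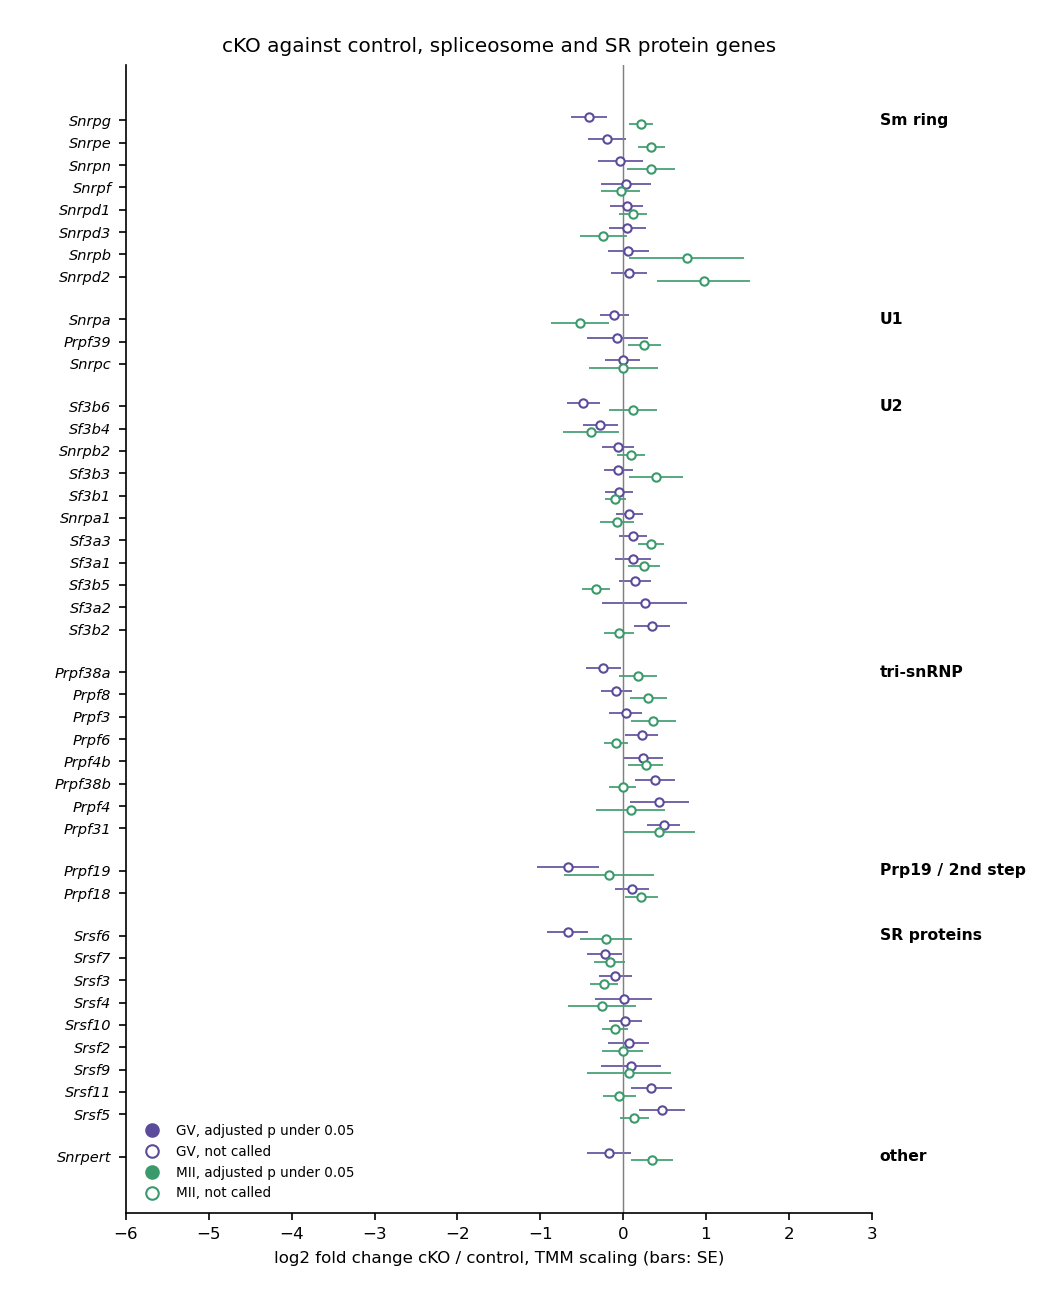
Difference between cKO and control for 42 genes at GV and 41 at MII, by role, as log2 fold change with TMM scaling (x axis; bars are standard errors) at GV (purple) and MII (green). All points are open because none was called, and 40 of 42 at GV and 38 of 41 at MII lie within 0.5 of 0, while with ERCC scaling the medians over 43 and 42 genes were 0.48 (0.12 without library cKO GV 1) and -0.11.

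The change from GV to MII itself was compared between the genotypes. It differed for 0 of 43 genes by the interaction test of edgeR, against 0.00862% of all genes tested (1 of 11607). At an unadjusted p under 0.05 there was 1 (all genes 5.24%), Snrpg, whose change was larger in cKO by 0.62 (SE 0.28, unadjusted p 0.0387, adjusted p 0.875). With ERCC scaling this difference was -0.05. Sf3b5 followed at -0.48 (SE 0.26, unadjusted p 0.0773) and Snrpe at 0.53 (SE 0.31, unadjusted p 0.104), which was -0.13 with ERCC scaling. Of the 43 values 22 were above 0 with TMM scaling and 3 with ERCC scaling, or 11 with ERCC scaling and without library cKO GV 1. Over all 11607 genes, 5747 were above 0 with TMM scaling and 1552 with ERCC scaling. The ERCC medians were -0.63 for the 43 genes and -0.61 for all genes, and -0.23 and -0.27 without library cKO GV 1. DESeq2 called 0 of the 43 and 5 of all genes (0.0431%), and ERCC scaling 0 and 3 (0.0258%). The 3 genes called in 1 genotype alone (Srsf11, Snrpe and Snrpert) are thus not shown to differ between genotypes. On simulated counts for the GV comparison the test recovered 56.6% of genes changed by 1 on the log2 scale and 99% of those changed by 2, and for the change in control 50% and 96%. The simulations changed 99 or 100 genes at each size, drawn from genes above a count limit. In the data 9 of 10911 genes were called at GV and 63.9% for the change in control. Since the adjusted p depends on how many genes change, these shares do not give the share recovered in the data. The interaction was not simulated, and its standard errors were larger, with a median of 0.338 over the 43 genes against 0.214 at GV.

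Other splicing genes, from lists of known complexes, gave the wider setting of the change from GV to MII. These lists were chosen with earlier results of these data known. Their counts stand against 30.1% higher and 33.8% lower over all genes with TMM scaling in control and 0.56% and 70.1% with ERCC scaling, and several lie near these shares. In cKO the shares over all genes were 29.5% and 34% with TMM scaling and 0.801% and 88% with ERCC scaling. Genes of the SR-related and hnRNP list, which bind pre-mRNA outside the snRNPs, were called higher in 22 of 35 and lower in 0 in control with TMM scaling, and higher in 0 and lower in 15 with ERCC scaling. In cKO 22 were higher and 2 lower with TMM scaling, and 0 and 32 with ERCC scaling. Srrm1, a partner of SR proteins, rose by 1.52 (SE 0.18). The kinases and the import receptor of SR proteins were higher in 6 of 7 and lower in 0, and with ERCC scaling lower in 4. In cKO 4 of the 7 were higher with TMM scaling and 6 were lower with ERCC scaling. Srpk2, a kinase that phosphorylates SR proteins, rose by 1.70 (SE 0.17).

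The LSm proteins, whose rings resemble the Sm ring and bind U6 or U7 RNA, were higher in 1 of 9 and lower in 5 with TMM scaling and lower in all 9 with ERCC scaling. Lsm10, of the U7 ring, changed by -3.83 (SE 0.23). Lsm11, its partner in that ring, rose by 0.79 (SE 0.32, adjusted p 0.0351 by edgeR) with TMM scaling in control, where it was at -1.005 with ERCC scaling, and stood at -0.008 (SE 0.32) in cKO. The 2 changes of Lsm11 differed by -0.80 (SE 0.45, adjusted p 0.875 by edgeR). The SMN complex and its helpers, which load Sm proteins onto small RNAs, were higher in 2 of 11 and lower in 5 with TMM scaling, and higher in 0 and lower in 9 with ERCC scaling. Gemin7 of this complex changed by -4.17 (SE 0.22), while Smn1 rose by 1.21 (SE 0.22) with TMM scaling and was at -0.56 with ERCC scaling. Further snRNP proteins were higher in 10 of 25 and lower in 8, the minor spliceosome in 3 and 3 of 8, the Prp19 complex and catalytic factors in 10 and 10 of 24 and the exon junction complex in 2 and 2 of 5, with none higher under ERCC scaling. Bud31 (-4.37, SE 0.25), Zmat5 (-4.16, SE 0.46), Txnl4a (-3.10, SE 0.28) and Eif4a3 (-2.05, SE 0.19) had the largest falls of these 4 lists. Snrnp48 (1.65, SE 0.22), U2surp (1.51, SE 0.21), Slu7 (1.44, SE 0.22) and Magohb (1.29, SE 0.24) had their largest rises with TMM scaling, and all 4 were below 0 with ERCC scaling.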

How the data were processed

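RNA was measured by Smart-seq2, which primes on poly(A) tails, in pools of 5 oocytes with ERCC spike-ins. The file the authors deposited holds raw counts of reads for each gene symbol. fastp, HISAT2, featureCounts and mm10 are named per the submitters' processing notes. Not given in the sources used here are their versions, the gene annotation, strand mode and the handling of reads with several matches. Columns were matched to samples by name, with the letter C read as control and T as cKO, and every genotype direction rests on this reading. 6 value columns were not used, and the 2-cell embryos are not analysed here.

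Counts entered edgeR 4.0.16 under R 4.3.3 (TMM, filterByExpr, glmQLFit and glmQLFTest, robust, Benjamini-Hochberg over all genes, threshold 0.05). Genotypes were compared on the 6 libraries of a stage, and stage changes and the interaction came from 1 fit of 12 libraries. Standard errors are the log2 fold change over the root of F. Levels are CPM over TMM-scaled gene totals, per kb of GENCODE M21 exon union where stated. Sequence features were read from 1 GENCODE M21 transcript per gene (APPRIS principal, then best support, then longest), and 46 of 46 genes matched. Alternatives were DESeq2 1.42.0, no filter, ERCC totals as library sizes, a replicate block, other samples in the fit, leaving out each library and, added after the values were seen, ERCC scaling with each library left out. The test was checked on simulated data.

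Named genes were the 3 with the smallest p in each genotype comparison and in the interaction, the 8 largest rises and 8 largest falls in control, and the highest and lowest gene of each role. From each other list they were the largest called rise and fall. Other members were named with their values seen, and 1 member that enters the counts is not reported here by name. Members and lists were chosen with earlier results of these data known.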

Additional observations from a re-analysis of the deposited data

How the results depend on the processing

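TMM or ERCC scaling was the choice that changed most. With ERCC scaling the changes from GV to MII that turned from above to below 0 were, in control, Snrpd1 -1.66, Srsf6 -1.66, Snrpe -1.62, Prpf4 -1.57, Snrpert -1.57, Prpf18 -1.55, Snrpn -1.495, Sf3b2 -1.25, Snrpg -1.11, Prpf4b -0.94, Srsf11 -0.89, Srsf4 -0.85, Snrpd3 -0.84, Srsf3 -0.83, Prpf38b -0.72, Prpf6 -0.71, Snrpb2 -0.68, Snrpf -0.65, Sf3b1 -0.62, Srsf7 -0.36 and Srsf10 -0.20. In cKO they were Sf3b2 -2.36, Snrpd1 -2.30, Sf3a3 -2.29, Sf3b6 -2.23, Prpf19 -2.09, Prpf3 -2.02, Srsf11 -2.01, Prpf18 -2.001, Prpf38b -1.87, Snrpert -1.78, Snrpd3 -1.76, Snrpn -1.76, Snrpe -1.75, Srsf6 -1.73, Prpf6 -1.72, Srsf4 -1.58, Prpf4b -1.55, Srsf3 -1.54, Snrpf -1.33, Sf3b1 -1.26, Snrpg -1.16, Snrpb2 -1.15, Srsf10 -0.96, Srsf5 -0.90, Srsf7 -0.81 and Prpf39 -0.15. Of the 3 genes with the smallest p in the interaction, Snrpe (-0.13) and Snrpg (-0.0516) turned below 0. Calls with ERCC scaling were 0 higher and 29 lower among the spliceosome genes in control (all genes 65 and 8141), 0 and 40 in cKO (93 and 10209), and 3 of all genes in the interaction. Without the filter on low counts the changes of Snrpd1 (-0.0160) and Srsf6 (-0.0270) in control and of Sf3a3 (-0.0107) and Sf3b2 (-0.0298) in cKO turned below 0, none of them called. All genes called in the genotype comparison at GV were 9, and 28 without the filter and 3 with all 12 libraries in 1 fit. At MII they were 0, and 4 with DESeq2 and 96 without the filter, and in the interaction 1, and 5 and 18. Leaving out 1 library gave 2 to 10 genes at GV and 0 to 3 in the interaction. It gave 24 to 26 spliceosome genes called in control and 22 to 26 in cKO. It turned the sign of Prpf3 (-0.29 to 0.17), Prpf4 (-0.17 to 0.39) and Srsf6 (-0.00396 to 0.16) in control. In cKO it did so for Prpf19 (-0.45 to 0.75), Sf3a3 (-0.0121 to 0.10), Sf3b2 (-0.13 to 0.29), Sf3b6 (-0.24 to 0.29) and Snrpd1 (-0.0437 to 0.28), none of them called. The labels do not say whether equal replicate numbers pair the libraries. In deviations from the group mean, same-numbered libraries correlated at -0.239 to 0.226 and differently numbered ones at -0.398 to 0.417. With 3 libraries per group these values cannot settle it. With the replicate block, 26 spliceosome genes were called in control and 26 in cKO, where Snrpert lost its call. Fitting the 6 libraries of 1 genotype added calls for Sf3b2, Sf3b6 and Srsf4 in control and removed those of Prpf38b, Prpf8 and Snrpert in cKO. No spliceosome gene was called between genotypes or in the interaction under any alternative run. With ERCC scaling, leaving out 1 library, an alternative added after the values were seen, gave calls for 5 to 13 of all genes at GV (11 with all libraries, lowest without control GV library 3), 0 to 1 at MII (0 with all, 1 without cKO MII library 1) and 0 to 7 in the interaction (3 with all, lowest without control GV library 1, highest without cKO GV library 3). Spliceosome genes called lower were 26 to 33 in control and 35 to 41 in cKO. The causes of these shifts were not tested, and 3 libraries of 5 pooled oocytes per group limit what can be seen.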
